A study of Mus musculus with 3 samples.

Results

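Mitochondrial ribosomal proteins are the protein building blocks of the ribosomes inside mitochondria. Their genes were taken as the rows whose mouse gene name is Mrpl or Mrps followed by digits and an optional letter, with a mean of at least 1 CPM (counts scaled to a common library total) over the deposited tables. All 77 rows with such a name passed this filter, out of 42258 rows in the tables and 12966 genes that passed it and were compared. By their known place in the ribosome, 50 members encode proteins of the large subunit and 26 of the small subunit. The remaining member, Mrps36, carries a small-subunit symbol but encodes a component of the 2-oxoglutarate dehydrogenase complex of the citric acid cycle. Mrps30 and Mrps18a also carry small-subunit symbols, and their proteins belong to the large subunit.

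Mitochondrial ribosomes translate the mRNAs of the mitochondrial genome, which encode core subunits of the respiratory chain and of ATP synthase. Their rRNAs come from the mitochondrial genome, whereas all of their proteins are encoded in the nucleus, made in the cytosol and imported, so that assembly draws on both genomes. Many of these proteins descend from bacterial ribosomal proteins, and others are found in mitochondrial ribosomes alone. Skeletal muscle is rich in mitochondria, above all in its slow, oxidative fibres.

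RNA came from the gastrocnemius and plantaris muscles of male mice, and each group was 1 library of pooled RNA. The aged EPA library held RNA of 6 C57BL/6J mice aged 87 weeks that had eaten a diet with 1 wt% EPA (eicosapentaenoic acid, an omega-3 fat of fish oil) for 12 weeks. Its aged control counterpart held RNA of 6 C57BL/6J mice of 87 weeks on an EPA-deprived diet over the same 12 weeks. For the young library, RNA of 3 mice aged 24 weeks was pooled, their strain is written C57BL/7J, and their diet is not given. The labels name no genetic alteration in any group. With 1 library per group there is no replicate, so no test can be made, and every difference below describes these libraries. Counting intervals, given at 95%, cover counting error only and neither variation between mice nor between preparations.

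The libraries held 55969822 counts for aged EPA, 57622886 for aged control and 57386394 for young. Mitochondrially encoded genes took 19.6%, 21.2% and 22.7% of them. Markers of fast muscle fibres, the main fibres of these muscles, summed to 109650, 107859 and 94361 CPM in the aged EPA, aged control and young libraries, and no marker of any cell type examined was at 0. The marker lists whose summed level differed most between aged control and young were those of slow fibres (907, 1083 and 672 CPM, 8 of 8 higher in aged control than in young), red cells (573, 552 and 1502 CPM, 5 of 5 lower in aged control than in young), adipocytes (127, 91.1 and 146 CPM, 4 of 5 lower in aged control than in young) and plasma cells (251, 228 and 152 CPM, 4 of 4 higher in aged control than in young). The part of these cell types in the values of the members was not tested. In whole muscle, fewer cells of a type and less RNA per cell cannot be told apart.

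The 77 members together took 0.234% of the counts in the aged EPA library, 0.226% in aged control and 0.251% in young. Their summed level was 2343 CPM in aged EPA, 2256 CPM in aged control and 2510 CPM in young, so the aged control library was the lowest and the young library the highest. The median member stood at 25.7, 24.5 and 27.7 CPM in these libraries. In every library, 70 of the 77 lay between 10 and 60 CPM. Apart from Mrpl53, no member had fewer than 474 counts in any library. Members are spread over 17 chromosomes, with at most 11 on a single one.

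Per kilobase of transcript, the scale on which different genes can be compared, the mean level over the libraries was highest for Mrpl42 (236 CPM per kilobase), a large-subunit protein without a bacterial counterpart. Mrps21, the counterpart of a bacterial small-subunit protein, had 134 CPM per kilobase, and Mrpl30, in the large subunit, had 80.4. The lowest were Mrps35 with 2.84, Mrpl19 with 3.08 and Mrps25 with 3.28 CPM per kilobase. Lengths are medians of annotated transcripts, and which transcripts muscle uses was not examined. The low members have long annotated transcripts (4162, 5000 and 6073 nucleotides) and Mrpl42, Mrps21 and Mrpl30 short ones (661, 446.5 and 662). The spread per kilobase therefore depends on these lengths, and the value of Mrps25 is uncertain, as given below. Mrpl42 stood at 149 CPM in aged EPA, 150 CPM in aged control and 168 CPM in young, and Mrps21 at 57.5, 54.9 and 67.5 CPM, both with young highest. Mrpl30 was close to level, at 54.5 CPM in aged EPA, 51.8 in aged control and 53.3 in young. So was Mrps35, at 11.8, 11.4 and 12.3 CPM.

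**Figure D1:**
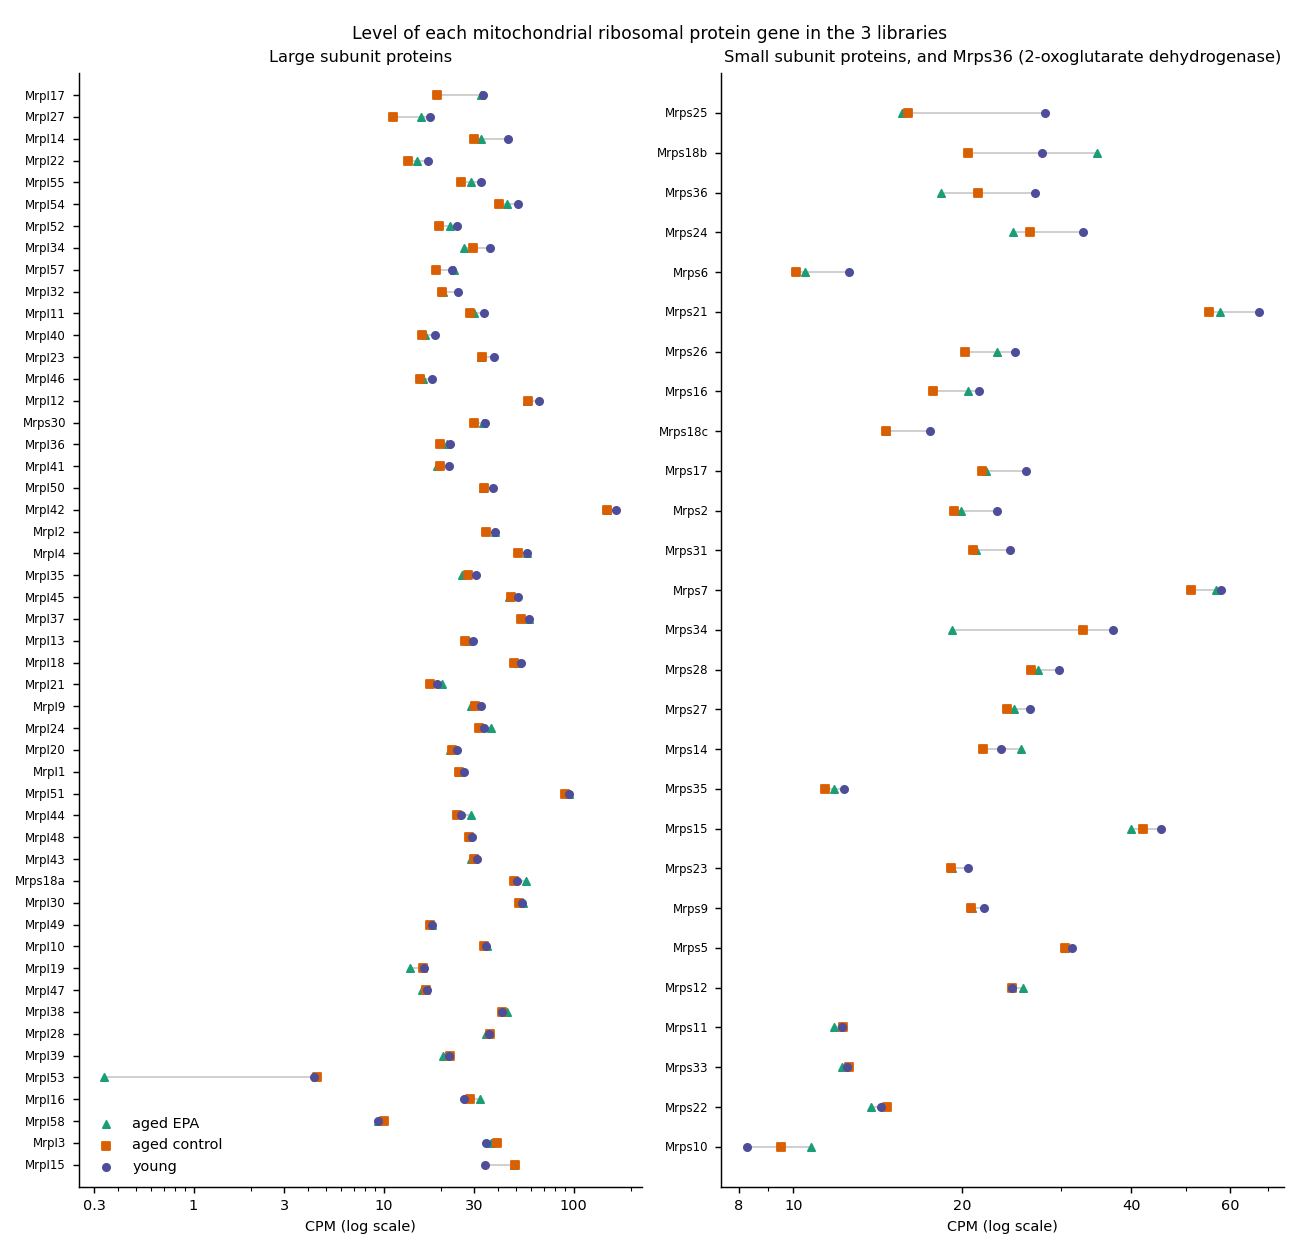
Level of each member (horizontal axis, CPM on a log scale) in the aged EPA (triangles), aged control (squares) and young (circles) libraries, 1 library each, with large-subunit proteins on the left and small-subunit proteins and Mrps36 on the right, ordered by the change of aged control against young. Most members have the circle to the right of the other symbols, Mrpl15 at the bottom left has it to the left, and the lone triangle at 0.339 CPM is Mrpl53. Where levels coincide the symbols cover each other.

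The first comparison sets aged control beside young muscle. Age cannot be told apart here from diet, strain as written or the number of mice pooled. Members were mostly lower in aged control: 64 of 77 lay below the young library, beside 53.5% of all compared genes. The shift was small. The median log2 change was -0.14 (middle 50% of members -0.26 to -0.05), against -0.02 over all compared genes (-0.19 to 0.14). Differences were counted from a fold that makes a gene 20% lower or 25% higher. At least 20% lower were 10 of the 77, beside 13.2% of all genes, and 1 was at least 25% higher, beside 11.0%. Members at least 1.5-fold apart in either direction numbered 4, beside 8.61%. Inside the limits of 20% lower and 25% higher lay 85.7% of the members, against 75.8% of all genes.

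Transcript length differed along with this shift. The median member transcript has 1226 nucleotides, against 2619 for all compared genes, and shorter transcripts tended to be lower in aged control across the whole library (Spearman's rho of length and change 0.28 over all genes and 0.22 over the members, across genes, which are not independent replicates). With the trend over all genes subtracted, the members' median became -0.06, and 51 of 77 were lower beside 49.3% of all genes. At least 20% lower were 5 in place of 10. The share of all genes past that limit was not counted with the trend subtracted.

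**Figure D2:**
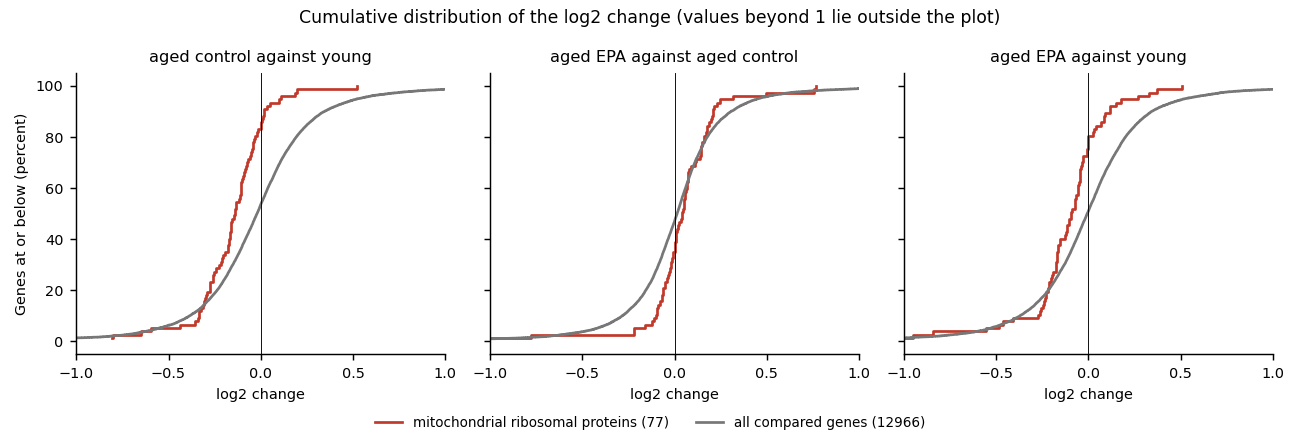
Percent of genes at or below each log2 change (horizontal axis) for the 77 members (red) and for all 12966 compared genes (grey) in the 3 comparisons. For the aged control and the aged EPA library against young the red line lies left of the grey over most of its height (medians -0.14 and -0.09); in aged EPA against aged control the lines lie close together (medians 0.04 and 0.01), and with the length trend subtracted the order of these medians turns.

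**Figure D3:**
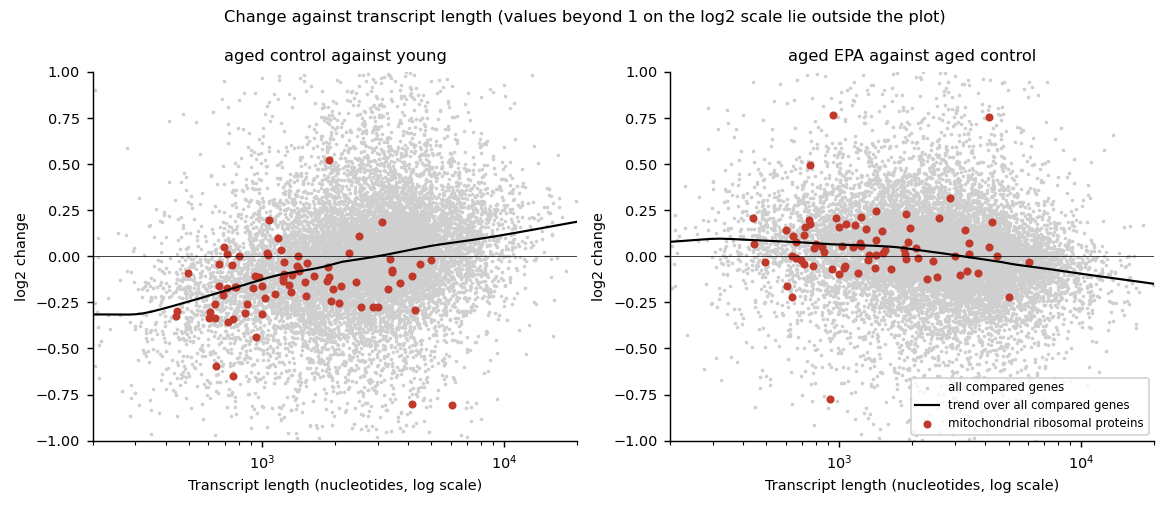
Log2 change against transcript length (nucleotides, log scale) of all compared genes (grey points), with the trend over them (black line), and of the members (red), for aged control against young (left) and aged EPA against aged control (right). On the left most members lie at the short lengths where the trend itself is below 0; on the right the trend runs the other way, and with it subtracted the members' median is -0.01.

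Among large-subunit proteins with a bacterial counterpart, Mrpl17 (chr7:105803206-105811099 in GRCm38, minus strand) differed most between aged control and young. It stood at 32.5 CPM in aged EPA, 19.2 CPM in aged control and 33.6 CPM in young, so the aged control library alone was low (log2 change against young -0.80, counting interval -0.91 to -0.70). Mrpl27, whose bacterial relative reaches towards the site where peptide bonds form, had 15.8 CPM in aged EPA, 11.2 in aged control and 17.6 in young, again with aged control lowest (-0.65, -0.80 to -0.51). Mrpl14 stood at 32.4 CPM in aged EPA, 29.97 in aged control and 45.3 in young, with both aged libraries low (-0.60, -0.69 to -0.51). Tmem63b, an ion channel gene that overlaps Mrpl14 over 584 bases on the opposite strand, ran the other way, at 75.02 CPM in aged EPA, 68.7 in aged control and 62.4 in young. The sum of both was 107.4, 98.7 and 107.7 CPM in these libraries. Whether reads were assigned by strand is not given, so the value of Mrpl14 is uncertain. Mrpl22, a protein of the exit tunnel through which the new peptide leaves, had 15.01, 13.4 and 17.2 CPM in aged EPA, aged control and young (-0.36 in aged control against young). Mrpl55 had 29.0, 25.7 and 32.6 CPM in the same libraries (-0.34). In both, aged control was lowest and young highest.

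The member at least 25% higher in aged control was Mrpl15 (chr1:4773206-4785739, minus strand), which has a bacterial counterpart in the large subunit. It stood at 48.6 CPM in aged EPA and 49.2 in aged control, against 34.2 in young, so both aged libraries were high (log2 change of aged control against young 0.52, counting interval 0.44 to 0.61). Mrpl3, a core protein of the large subunit, had 36.8, 39.4 and 34.6 CPM in aged EPA, aged control and young (0.19 in aged control against young, 0.10 to 0.27). Mrpl16, also in the large subunit, had 32.2, 28.6 and 26.7 CPM (0.10, with a counting interval from -0.00094 to 0.20 that reaches 0). Mrpl58, a large-subunit protein that also releases peptides from stalled ribosomes, had 9.31, 10.08 and 9.34 CPM, and its interval for aged control against young (-0.06 to 0.28) included 0.

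Other large-subunit proteins gave values in the same range. Mrpl54, found in mitochondria only, had 44.8 CPM in aged EPA, 40.6 in aged control and 51.1 in young (-0.33 for aged control against young), and Mrpl52, the member closest to the threshold, had 22.5, 19.5 and 24.4 CPM (-0.32). Mrps30 had 33.2 CPM in aged EPA, 30.1 in aged control and 34.0 in young (-0.18), and Mrps18a, a relative of a bacterial small-subunit protein that sits in the large subunit, had 55.96, 48.8 and 50.5 CPM (-0.05, counting interval -0.12 to 0.03).

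In the small subunit, Mrps25 (chr6:92169525-92184033, minus strand), a protein without a bacterial counterpart, had 15.6 CPM in aged EPA and 16 in aged control, against 28.1 in young, which made the young library alone high (log2 change of aged control against young -0.81, counting interval -0.93 to -0.69). Its gene overlaps Nr2c2, a nuclear receptor gene on the opposite strand, over 4770 bases. Nr2c2 ran the other way, at 32.9 CPM in aged EPA and 30.8 in aged control, against 19.0 in young. The sum of both genes was 48.5, 46.8 and 47.1 CPM in these libraries, nearly level. Whether reads were assigned by strand is not given in the sources used here, so reads of the pair cannot be told apart, and the value of Mrps25 is uncertain.

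Mrps18b, a relative of a bacterial small-subunit protein, stood at 34.8 CPM in aged EPA, 20.4 in aged control and 27.7 in young, with aged control lowest and aged EPA highest (aged control against young -0.44, counting interval -0.55 to -0.33). Mrps21 was lower by a log2 change of -0.30. Mrps10, the counterpart of a bacterial small-subunit protein, was the small-subunit member furthest above young, with 10.7 CPM in aged EPA, 9.49 in aged control and 8.26 in young (aged control against young 0.20, 0.02 to 0.38). Mrps22, which in humans is linked to disease of heart muscle when mutated, had 13.8, 14.7 and 14.3 CPM, and its interval included 0. Mrps36, of the 2-oxoglutarate dehydrogenase complex, had 18.3 CPM in aged EPA, 21.4 in aged control and 26.9 in young (-0.33), so that it fell outside the ribosome in function and still lay among the 10 lower members.

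Both subunits and both origins showed similar medians. In aged control against young, 42 of 50 large-subunit members were lower (median -0.14), and 21 of 26 small-subunit members (-0.17). Of members with a bacterial counterpart, 38 of 45 were lower (-0.15), and of those without, 25 of 31 (-0.14). Mrps18a and Mrps18b were placed among those without, since Mrps18c is counted as the counterpart of the bacterial protein to which all of these are related. The shorter 39 transcripts had a median of -0.17 and the longer 38 one of -0.11, an order that turned with the length trend subtracted (-0.02 and -0.08). These differences between subgroups are small beside the spread of the members, whose middle 50% spans 0.21 on the log2 scale.

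By role, and chosen with their values known, the stalk that binds translation factors is represented by Mrpl10, Mrpl11 and Mrpl12. Mrpl12 had 56.96 CPM in aged EPA, 57.8 in aged control and 65.99 in young, and Mrpl11 had 30.03, 28.5 and 33.8 CPM, both lower in aged control than in young (-0.19 and -0.24). Mrpl10 was near level at 35.2, 33.8 and 34.6 CPM. Mrpl45, which in humans ties the ribosome to the inner membrane, had 45.8, 46.6 and 51.3 CPM (-0.14 in aged control against young). Mrps12, near the decoding site of the small subunit, was level between aged control and young, at 25.7 CPM in aged EPA, 24.5 in aged control and 24.5 in young.

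The second comparison, of aged EPA with aged control muscle, asks what differs in old muscle when the diet contains EPA. Members as a set were close to level: 27 of 77 were lower, beside 47.0% of all genes, with a median log2 change of 0.04 (middle 50% -0.03 to 0.14) against 0.01 over all genes. With the authors' deposited CPM, with which the median of all genes is lower too, 41 of 77 were lower, beside 55.8% of all genes, and the medians were -0.02 for the members and -0.03 for all genes. With the length trend subtracted, 43 of 77 were lower, beside 49.4% of all genes, and the members' median was -0.01 against 0.0028. A few members stood out from this level set. At least 20% lower were 2, beside 8.28% of all genes, and at least 25% higher were 3, beside 9.35%. Of these, 4 were at least 1.5-fold apart, beside 5.91%, and 93.5% of the members lay inside the limits of 20% lower and 25% higher, against 82.4% of all genes.

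The 3 higher members were Mrps18b, Mrpl17 and Mrpl27, each lowest in aged control. Mrps18b was higher in aged EPA by a log2 change of 0.76 (counting interval 0.66 to 0.87), Mrpl17 by 0.76 (0.65 to 0.87) and Mrpl27 by 0.49 (0.35 to 0.65). For Mrpl17 and Mrpl27 the aged EPA level was near that of young, with log2 changes of -0.04 and -0.15 against young, and for Mrps18b it was above young (0.33). These changes and those against young share the aged control library, so a low value in that library alone gives both. Ppp1r10, which encodes a regulatory subunit of a protein phosphatase and begins 44 bases from Mrps18b on the opposite strand, stood at 17.7 CPM in aged EPA, 22.8 in aged control and 13.1 in young, and was thus highest where Mrps18b was lowest. Gm16279, an antisense gene that overlaps Mrps18b over 1837 bases, had only 1.59, 1.98 and 1.39 CPM.

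Promoters of Mrpl17, Mrpl27 and Mrps18b are shown, from 250 bases before to 50 bases after the transcript start in RefSeq (build GRCm38.p6). These members were picked as the higher ones in aged EPA against aged control, so a low aged control value was part of the choice. Whether they are regulated together was not tested. Capitals mark matches, on either strand, to 5 motifs. The motif of NRF1 was searched as GCGCANGCG. That of ETS factors, among them GABPA, was searched as CCGGAAG. For YY1 the letters were AAGATGG. For SP1 they were GGGCGGG, and a TATA box was taken as TATAAA. Mrpl17 lies at chr7:105811038-105811337 on the minus strand, Mrpl27 at chr11:94653541-94653840 on the plus strand and Mrps18b at chr17:35916391-35916690 on the minus strand.
Mrpl17: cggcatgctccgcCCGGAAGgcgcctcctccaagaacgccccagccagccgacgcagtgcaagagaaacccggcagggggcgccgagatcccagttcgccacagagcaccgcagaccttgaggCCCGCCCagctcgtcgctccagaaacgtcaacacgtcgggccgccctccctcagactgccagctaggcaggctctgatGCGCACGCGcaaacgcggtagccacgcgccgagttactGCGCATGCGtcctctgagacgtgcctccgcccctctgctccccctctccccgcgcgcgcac
Mrpl27: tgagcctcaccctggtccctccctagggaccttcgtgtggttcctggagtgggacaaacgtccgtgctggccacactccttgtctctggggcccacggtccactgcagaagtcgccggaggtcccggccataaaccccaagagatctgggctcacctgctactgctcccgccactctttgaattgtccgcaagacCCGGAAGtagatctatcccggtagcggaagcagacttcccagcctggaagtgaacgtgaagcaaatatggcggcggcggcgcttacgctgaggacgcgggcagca
Mrps18b: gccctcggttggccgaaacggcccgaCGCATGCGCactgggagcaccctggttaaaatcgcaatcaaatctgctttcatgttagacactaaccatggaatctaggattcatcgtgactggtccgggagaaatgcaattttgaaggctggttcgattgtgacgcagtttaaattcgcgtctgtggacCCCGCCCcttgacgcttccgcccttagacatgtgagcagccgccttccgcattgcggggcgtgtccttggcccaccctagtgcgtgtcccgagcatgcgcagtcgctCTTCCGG
The Mrpl17 window held 4 matches, that of Mrps18b 3 and that of Mrpl27 1. All of them held an ETS match, and those of Mrpl17 and Mrps18b held NRF1 and SP1 matches as well. None held a TATA box. The Mrps18b window lies outside the gene positions used here for Mrps18b (chr17:35910379-35916389). It also holds the start of Ppp1r10 on the opposite strand, so its matches cannot be credited to Mrps18b alone.

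NRF1 and GABPA are known activators of nuclear genes for mitochondrial proteins, and YY1 has been linked to the same programme in muscle. Of the 77 members, 68 had a promoter in the table, with 74 windows in all. A gene counted as having a motif where any of its windows held a match. The ETS motif was present in 36.8% of these members, against 19.9% of compared genes (9692 with a promoter) and 9.93% of all genes with a promoter. The NRF1 motif was present in 23.5%, against 15.2% and 7.03%, and the YY1 motif in 19.1%, against 8.43% and 7.28%. At least 1 of these 3 motifs was found in 43 members (63.2%, against 37.0% of compared genes). SP1 matches were in 42.6%, against 52.2% of compared genes and 27.9% of all genes with a promoter, and TATA boxes in 7.35%, against 9.08% and 15.7%. Matches of different motifs overlapped 1 time among the member windows. A match is a run of letters in the window and does not show that a factor binds there.

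The 2 lower members were Mrpl53 and Mrps34. Mrpl53 (chr6:83109040-83109939, plus strand), a large-subunit protein found only in mitochondria, had 19 counts in aged EPA, 256 in aged control and 246 in young, or 0.339, 4.44 and 4.29 CPM. The aged EPA library alone was low (log2 change against aged control -3.37, log2 ratio of counts -3.71, counting interval -4.47 to -3.04). The gene of Mrpl53 lies wholly inside that of Gm42688 on the same strand, so reads of the pair cannot be told apart here and the value of Mrpl53 is uncertain. Gm42688 stood at 24.1 CPM in aged EPA, 20.9 in aged control and 27.1 in young, and the sum of both was 24.5, 25.3 and 31.4 CPM. The Mrpl53 window at chr6:83108858-83109157 on the plus strand, shown because this member differed most, held 2 ETS matches and no other.
Mrpl53: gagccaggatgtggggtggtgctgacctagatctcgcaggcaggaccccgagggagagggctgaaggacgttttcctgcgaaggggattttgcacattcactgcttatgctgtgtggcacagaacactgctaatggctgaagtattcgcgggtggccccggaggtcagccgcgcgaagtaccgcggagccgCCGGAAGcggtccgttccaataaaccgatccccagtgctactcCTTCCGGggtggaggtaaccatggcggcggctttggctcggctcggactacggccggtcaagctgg

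Mrps34 (chr17:24895116-24897502, plus strand), a small-subunit protein whose mutation in humans causes a mitochondrial disease, had 19.2 CPM in aged EPA, against 32.9 in aged control and 37.1 in young, so the aged EPA library alone was low (log2 change against aged control -0.78, counting interval -0.89 to -0.67). All 2387 bases of its gene are overlapped by Mapk8ip3, which encodes a transport and signalling adaptor, on the opposite strand. Mapk8ip3 stood at 28.4 CPM in aged EPA, 24.7 in aged control and 26.3 in young. The sum of both was 47.6, 57.6 and 63.4 CPM, lowest in aged EPA too. Nme3 overlaps Mrps34 over 1003 bases on the same strand, and Eme2 lies 28 bases from it. Nme3 and Eme2 stood at 0.733 and 8.13 CPM in aged EPA, 0.764 and 12.5 in aged control and 1.67 and 9.62 in young. Since the strand setting is not given, reads of the overlapping genes cannot be told apart, and the value of Mrps34 is uncertain.

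A member counted as standing alone in 1 library was at least 1.5-fold from both others. That held for Mrpl53 and Mrps34 in aged EPA (2 of 77, beside 1.89% of all genes), for Mrpl17 in aged control (1 of 77, beside 2.11%) and for Mrps25 in young (1 of 77, beside 3.91%). Mrpl53, Mrps34 and Mrps25 overlap another compared gene, as do 22 members in all, and Mrpl17 was not among them. What overlaps add to the counts of members was not tested. Mrpl48, picked with its values known, shares 892 bases with Rab6a, a gene for a Golgi trafficking protein. Rab6a was high in aged control alone, with 36.9 CPM in aged EPA, 98.7 in aged control and 34.6 in young, while Mrpl48 was level at 28.3, 28.0 and 29.2 CPM.

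**Figure D4:**
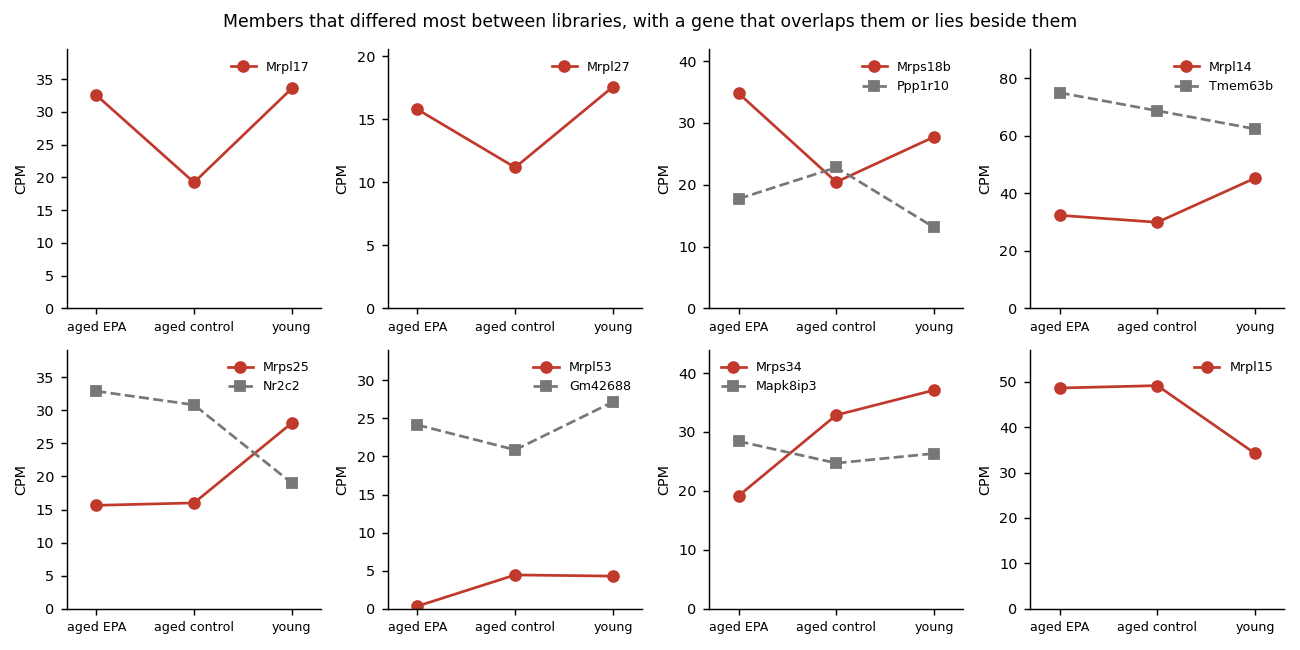
Level (vertical axis, CPM from 0) of the 8 members discussed most (red) in the aged EPA, aged control and young libraries, with a gene that overlaps them or lies beside them where one is discussed (grey, dashed); lines join the values of a gene. Mrpl17, Mrpl27 and Mrps18b dip in aged control, Mrps25 and Nr2c2 cross, and Mrpl53 and Mrps34 are low in aged EPA.

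The next widest changes between the aged libraries stayed inside the limits of 20% lower and 25% higher. Mrpl57 (23.6 CPM in aged EPA, 18.9 in aged control and 22.95 in young; log2 change of aged EPA against aged control 0.32) was the nearest to that threshold. Mrpl44, related to a ribonuclease and linked in humans to heart muscle disease, had 28.9, 24.4 and 25.6 CPM (0.25), Mrps14 had 25.5, 21.7 and 23.5 CPM (0.23), Mrpl24 of the exit tunnel 36.8, 31.7 and 33.98 CPM (0.21) and Mrps16 20.5, 17.7 and 21.5 CPM (0.21). On the low side, Mrpl19 had 13.8 CPM in aged EPA, 16.1 in aged control and 16.3 in young (-0.22), Mrps36 -0.22, Mrpl34 26.4, 29.5 and 36.5 CPM (-0.16) and Mrpl39 20.5, 22.3 and 22.04 CPM (-0.12).

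The third comparison sets aged EPA beside young muscle, where age, diet, strain as written and number of mice pooled cannot be told apart either. Members were again mostly lower: 62 of 77 lay below young, beside 50.9% of all genes, with a median log2 change of -0.09 (middle 50% -0.20 to -0.0048) against -0.01 over all genes. At least 20% lower were 7, beside 12.3%, and at least 25% higher were 3, beside 11.1%. Those at least 1.5-fold apart numbered 3, beside 8.32%. With the length trend subtracted, the median was -0.05 against 0.0012 over all genes, and 52 of 77 were lower, beside 49.8% of all genes.

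Besides Mrpl53 (-3.32) and Mrps34 (-0.95), the lower members were Mrps25 (-0.84), Mrps36 (-0.55), Mrpl14 (-0.48), Mrpl34 (-0.46) and Mrps24 (-0.41, at 24.7 CPM in aged EPA, 26.4 in aged control and 32.8 in young). Urgcp overlaps Mrps24 over 2264 bases on the same strand, so the value of Mrps24 is uncertain. That of Mrpl14 is uncertain too, as given above. Urgcp stood at 41.1 CPM in aged EPA, 44.2 in aged control and 50.9 in young, in the same order. Mrps25, Mrps36, Mrpl14, Mrpl34 and Mrps24 were also lower in aged control than in young, and of these Mrpl14 was the only one higher in aged EPA than in aged control. The higher members were Mrpl15 (0.51), Mrps10 (0.37) and Mrps18b (0.33). Mrpl15 and Mrps10 were higher in both aged libraries than in young.

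Read across the 3 libraries, the order aged control, aged EPA, young from low to high was the most frequent, in 37 of 77 members (48.1%, against 20.9% of all compared genes). The order aged EPA, aged control, young followed with 18 members (23.4%, against 18.05%). Young was highest in 55 members (71.4%, against 39.0%) and lowest in 6 (7.79%, against 34.5%). Aged control was lowest in 46 (59.7%, against 35.5%), and aged EPA in 25 (32.5%, against 29.98%). These orders count differences of any size, and the placing of aged EPA against aged control shifts with the scaling and the length trend as given above.

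Other ribosome proteins, assembly factors, translation factors, aminoacyl-tRNA synthetases and transcription genes of mitochondria had medians between -0.05 and -0.14 in aged control against young. Of 5 mitochondrial ribosome proteins with other symbols, 4 were lower (median -0.14), and 3 with the length trend subtracted (-0.02). Gadd45gip1, a large-subunit protein, had 42.9 CPM in aged EPA, 37.6 in aged control and 46.7 in young, and Chchd1, of the small subunit, had 46.9, 47.5 and 57.4 CPM. Dap3, a small-subunit protein that binds GTP, was near level with 38.3, 34.6 and 35.6 CPM. Of 29 factors for ribosome assembly, 24 were lower (-0.08; 53.5% of all genes were), 5 of them by at least 20%. With the length trend subtracted, 17 of the 29 were lower, beside 49.3% of all genes, and the median was -0.03. Dhx30, an RNA helicase, had 4.52, 1.15 and 1.76 CPM in aged EPA, aged control and young, and Mterf4, which brings an rRNA methyltransferase to the ribosome, had 9.17, 5.17 and 7.32 CPM, both lowest in aged control. Spg7, a subunit of a protease that matures Mrpl32, had 72.4, 80.4 and 70.8 CPM. Mrpl32 itself had 20.5 CPM in aged EPA, 20.4 in aged control and 24.8 in young.

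Translation factors and RNA-binding proteins of mitochondria were lower in 10 of 16 (median -0.05), a share near the 53.5% of all genes. Mtif2, an initiation factor, had 17.1 CPM in aged EPA, 18.8 in aged control and 23.3 in young, and Slirp, an RNA-binding protein that keeps mitochondrial mRNAs stable, had 21.6, 22.8 and 29.5 CPM. These were the lowest changes of the list, and 6 of the 16 were higher. Among those 6, Lrpprc, picked with its value known, had 87.3, 88.9 and 81.7 CPM (0.12 in aged control against young). Of 20 mitochondrial aminoacyl-tRNA synthetases, which load tRNAs, 12 were lower (-0.07), again near the share of all genes. Pars2 differed most, with 0.822 CPM in aged EPA, 3.11 in aged control and 1.85 in young. Of 6 compared transcription genes of mitochondria, 5 were lower (-0.14), and the exception was the RNA polymerase Polrmt, with 25.8, 24.7 and 21.6 CPM. Among 9 regulators of mitochondrial genes 3 were lower (0.03). Nrf1, the factor of the motif above, had 11.9 CPM in aged EPA, 8.92 in aged control and 7.58 in young, and Ppargc1a, a coactivator of mitochondrial genes, had 61.7, 85.2 and 75.3 CPM.

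The RNA that mitochondrial ribosomes contain and read was lower in aged EPA than in the other libraries for both rRNAs and for most mRNAs. Of the rRNAs, mt-Rnr1 of the small subunit had 1058 CPM in aged EPA, 1191 in aged control and 1328 in young, and mt-Rnr2 of the large subunit had 2263, 2683 and 2527 CPM. How the library kit treated rRNA is not given, so these levels need not reflect the amount of ribosomes. Of 13 mitochondrial mRNAs, 11 were lower in aged control than in young (median -0.09), and aged EPA stood below aged control in 12 (-0.14), with mt-Co2 the exception. With the length trend subtracted, the mRNA median of aged control against young turned to 0.06, with 5 of 13 lower, beside 49.3% of all genes. With the GC trend subtracted, that of aged EPA against aged control was -0.02.

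Cytosolic ribosomal proteins, which build the ribosomes outside mitochondria, were lower in aged control than in young in 80 of 82 genes, with a median of -0.29 and 35 at least 20% lower, beside 53.5% and 13.2% of all genes. Nuclear-encoded respiratory chain subunits were lower in 68 of 75 (-0.23), 17 of them by at least 20%. Both medians are further from 0 than the -0.14 of the members. Cytosolic ribosomal proteins have still shorter transcripts (median 772.5 nucleotides), and with the length trend subtracted the medians were -0.12 for them, -0.05 for the respiratory subunits and -0.06 for the members. In aged EPA against aged control the medians were 0.09 for cytosolic ribosomal proteins, 0.06 for respiratory subunits and 0.04 for the members, and 0.02, -0.0039 and -0.01 with the length trend subtracted.

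**Figure D5:**
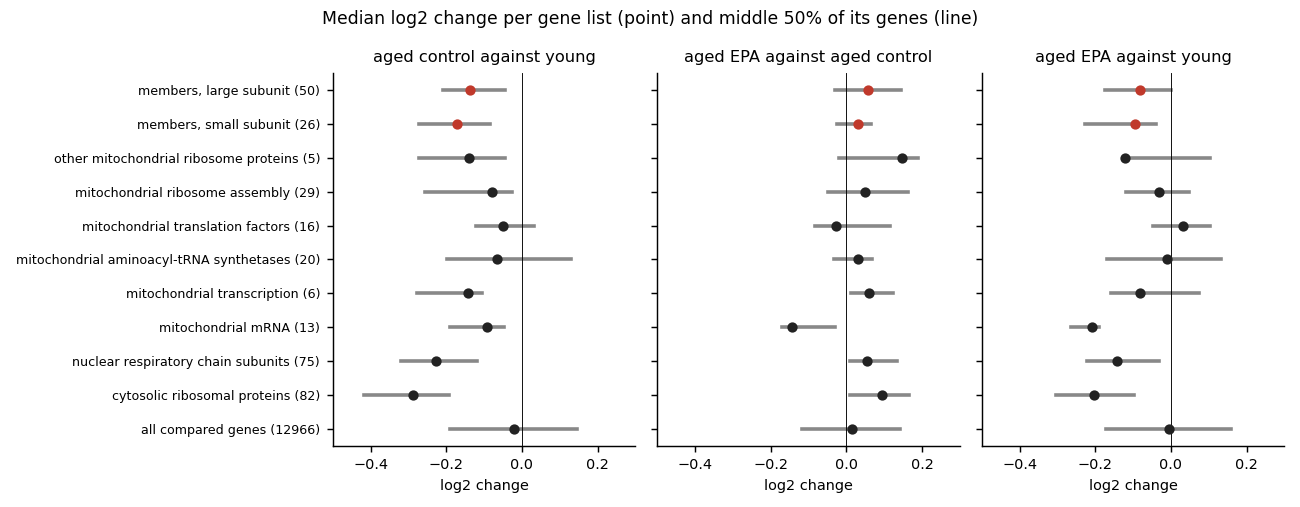
Median log2 change (points, members in red) and middle 50% of genes (grey lines) of the members by subunit, of related lists and of all compared genes in the 3 comparisons, with the number of genes in brackets. In aged control against young the median of every list shown lies left of 0, that of cytosolic ribosomal proteins furthest at -0.29, while some lines cross 0. In aged EPA against aged control the mitochondrial mRNAs stand lowest at -0.14. The members' small positive medians there (0.06 for the large and 0.03 for the small subunit) turn to -0.0018 and -0.02 with the length trend subtracted.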

How the data were processed

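RNA was sequenced from 3 pooled libraries, grouped by the labels' age and diet. Per the submitters' processing notes, HISAT2 2.1.0, StringTie 1.3.4d and R 3.5.0 were used with mouse build GRCm38. The strand setting is not given in the sources used here. The authors deposited CPM per gene. Each nonzero CPM is a whole count over 1 of 5 library-sized divisors (56034275 to 57687235; largest distance from a whole number 3.03e-09), and the divisor varied from gene to gene. Recovered counts were therefore divided by each library's own total, which moved a member's log2 change by up to 0.08 from the deposited CPM. No count test was run because each group is 1 library.

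Changes are log2 ratios of (CPM + 0.1), which understates those of low genes, over genes averaging at least 1 CPM. Genes at least 25% higher or 20% lower (0.32 on the log2 scale) were counted. Values of 63 rows with a repeated symbol were summed. Counting intervals are exact Clopper-Pearson intervals of the count ratio at 95%, and 3 counts, the limit that a count of 0 allows, equal 0.0536 CPM in aged EPA, 0.0521 in aged control and 0.0523 in young. Transcript lengths are medians over protein-coding transcripts of GENCODE M21 (GRCm38), and trends were fitted by lowess (span 0.3, statsmodels 0.14.6) with Python 3.11.15, pandas 2.3.3 and scipy 1.17.1. Promoter windows are from RefSeq. The computation was tested on simulated data.

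Named members are the 8 largest changes per direction for aged control against young and for aged EPA against aged control, the 3 highest and lowest per kilobase, Mrps36, Mrps30, Mrps18a and those alone at least 1.5-fold apart, with up to 2 genes per direction from each related list. Other members named (Mrpl10, Mrpl11, Mrpl12, Mrpl32, Mrpl45, Mrpl46, Mrpl47, Mrpl48, Mrpl52, Mrps7, Mrps11, Mrps12, Mrps24) were chosen after their values were seen. The members and lists were chosen with earlier results of these data known. Alternatives were other pseudocounts, filters, scalings, repeated-symbol handling, fold thresholds, and subtraction of length and GC trends.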

Additional observations from a re-analysis of the deposited data

How the results depend on the processing

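The count of members at least 20% lower in aged control against young was 10, and became 5 with a pseudocount of 5 CPM, 6 with scaling by the median of ratios, 6 with a trimmed mean of log ratios, 5 with the length trend subtracted and 6 with the GC trend subtracted; the median of -0.14 became -0.056 with the length trend subtracted. In aged EPA against young, members at least 25% higher numbered 1 in place of 3 with a pseudocount of 5 CPM. In aged EPA against aged control, members at least 20% lower numbered 1 in place of 2 at a mean of at least 5 CPM, which leaves out Mrpl53. The median of that comparison changed sign with the deposited CPM (-0.016, beside -0.028 for all genes) and with the length trend subtracted (-0.0055, beside 0.0028), and members lower numbered 41 and 43 in place of 27, beside 55.8% and 49.4% of all genes. With the deposited CPM the median of all genes moved too, and the members' median minus it was 0.012. With 1.5-fold as the limit, members called in either direction were 4 between aged control and young and 3 between aged EPA and young. Beside them stood 8.61% and 8.32% of all genes. At the other settings the share of all genes past the limits was not counted. The cause of the other moves was not tested. Of 837 values of the 31 members named by rule, 796 stayed within 0.1 on the log2 scale and none of those past the limit changed sign; 27 of the 41 that moved did so with the length trend subtracted. No paired analysis was possible because each group is 1 library and the labels give no replicate numbers. For the same reason no replicate could be left out. Variation between mice and preparations was not measured. Counting intervals of Mrpl16, Mrpl58 and Mrps22 for aged control against young included 0, and Mrpl53 had 19 counts in aged EPA.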

Other observations

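Several genes that overlap a member or lie beside it differed between the libraries while the member stayed between 20% lower and 25% higher in aged EPA against aged control. They were picked with their values known, and what overlap adds to a member's counts was not tested. Ndufb5, a subunit of respiratory complex I whose gene overlaps Mrpl47 over 616 bases on the opposite strand, stood at 141 CPM in aged EPA, 191 in aged control and 224 in young, while the sum with Mrpl47 was 157, 208 and 241 CPM, so that Mrpl47 added little. Mif4gd, which overlaps Mrps7 over 119 bases, had 19.5 CPM in aged EPA, 12.8 in aged control and 28.4 in young. Mrps11 and Mrpl46, members that overlap each other over 413 bases on opposite strands, had a summed level of 27.9, 27.8 and 30.1 CPM in aged EPA, aged control and young. Mrps11 was near level at 11.8, 12.3 and 12.2 CPM in these libraries. Mrpl46 had 16.1, 15.5 and 17.9 CPM (-0.20 in aged control against young, counting interval -0.34 to -0.07).

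Members whose promoter holds an NRF1 match had a median log2 change of -0.23 in aged control against young (15 of 16 lower), beside -0.14 for the 52 without one (42 lower). Of all compared genes, with or without a match, 53.5% were lower. For the ETS motif the medians were -0.12 for 25 members with a match and -0.16 for 43 without. With and without a match they were -0.15 and -0.14 for YY1, -0.16 and -0.13 for SP1, and -0.20 (5 members) and -0.14 for the TATA box. Transcript length was not taken into account. No test of these differences was made.

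Among cytosolic ribosomal proteins, Rpl7a stood at 34.5 CPM in aged EPA, 10.03 in aged control and 35.9 in young, low in aged control alone like Mrpl17. Ndufc1, of respiratory complex I, had 82.6, 54.9 and 99.4 CPM in the same libraries.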
